A study of Mus musculus with 9 samples.

Results

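The 6 genes described here are Fgf5, Otx2, Pou3f1, Sox3, Lef1 and Bcl11a, of 15009 genes with a usable probe. Fgf5, Otx2, Pou3f1 and Sox3 are markers of the formative epiblast, and Lef1 and Bcl11a encode transcription factors. They were chosen by name, with their levels in these arrays already known. All 7 probes carrying a RefSeq accession of these genes were read on 9 arrays. The choice rests on the day course, so the levels by day are given as a description and without a test. The comparisons between cell lines were tested. They use the same arrays, whose levels were known when the genes were chosen, so they are not independent of the choice.

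The RNA was that of mouse embryonic stem (ES) cells of 3 genotypes: wild type, a knock-in of PKM1 (PKm1KI) and a knock-in of PKM2 (PKm2KI). The latter are the splice forms of pyruvate kinase M, a glycolytic enzyme made from the gene Pkm. Each line was taken in culture with LIF, the cytokine that sustains naive ES cells (day 0), and after 3 and 7 days without LIF as floating embryoid bodies, aggregates in which ES cells differentiate. One-colour Agilent arrays measured 1 sample per line and day. A day is thus repeated over the 3 lines, and a line over its 3 days. Each genotype was a single line. The sources used here do not give its parental strain, its exact allele or the number of clones. Every p-value therefore measures only the spread between these arrays.

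When naive ES cells leave the ground state they pass through a formative phase that resembles the epiblast just after implantation, before germ layer genes are used. In this phase the transcription factors OTX2 and POU3F1 (also called OCT6) help to install a new set of enhancers, and the growth factor gene Fgf5 is the customary marker. SOX3 is a relative of SOX2 in epiblast and neural progenitors. LEF1 binds DNA for beta-catenin, the effector of Wnt signalling. BCL11A is a zinc finger repressor best known for silencing fetal globin genes, and it can be part of the BAF chromatin remodelling complex.

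Per array, 54.2 to 61.6 percent of spots gave signal well above background and 0 saturated. Pou5f1, Sox2 and the other 7 general pluripotency genes read were well above background on all 9 arrays. The signal of Pkm, the edited gene, lay between 13.58 and 16.10 (log2), and none of its differences between lines passed the test (adjusted p = 0.351 to 0.890, limma). Whether its probe can tell the splice forms apart was not tested, so it does not check the genotype labels. Wild type at days 0 and 7, the PKm1KI line at day 3 and the PKm2KI line at days 0 and 3 shared slide 1. Wild type at day 3 and the PKm1KI line at days 0 and 7 shared slide 2, and the PKm2KI line at day 7 was alone on slide 3. The 3 day 7 arrays stood apart from each other in visceral endoderm markers, with a summed signal of 498966 in the PKm1KI line, 11018 in wild type and 3808 in the PKm2KI line, against 438 to 1199 on the other 6 arrays. The signal is that of bulk RNA, in which fewer cells of a type and less RNA per cell cannot be told apart.

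The levels below are log2 processed signals, scaled so that the 75th percentile of every array is equal. They compare arrays for 1 probe and not one gene with another. Lef1 and Bcl11a, the latter on the brighter of its 2 probes, had their highest level at day 3 in all 3 lines. Pou3f1 and Sox3 did so in the 2 knock-in lines, Fgf5 in the PKm2KI line alone and Otx2 in none. Day 3 was the highest day in 11 of the 18 pairs of gene and line, in 2 pairs of wild type, 4 of the PKm1KI and 5 of the PKm2KI line. A level was counted as persisting where day 7 lay less than 1 log2 unit below day 3. This held in 12 pairs, in 6 of 6 for wild type and in 3 of 6 for each knock-in line. Over all genes tested it held for 88.1 percent in wild type, 82.9 percent in the PKm1KI and 96.2 percent in the PKm2KI line. Over the same genes, 22 percent had day 3 as the highest day in all 3 lines. Since the genes were chosen for their day course, nothing is read from these counts or from the 2 of 6 beside those shares.

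**Figure D1:**
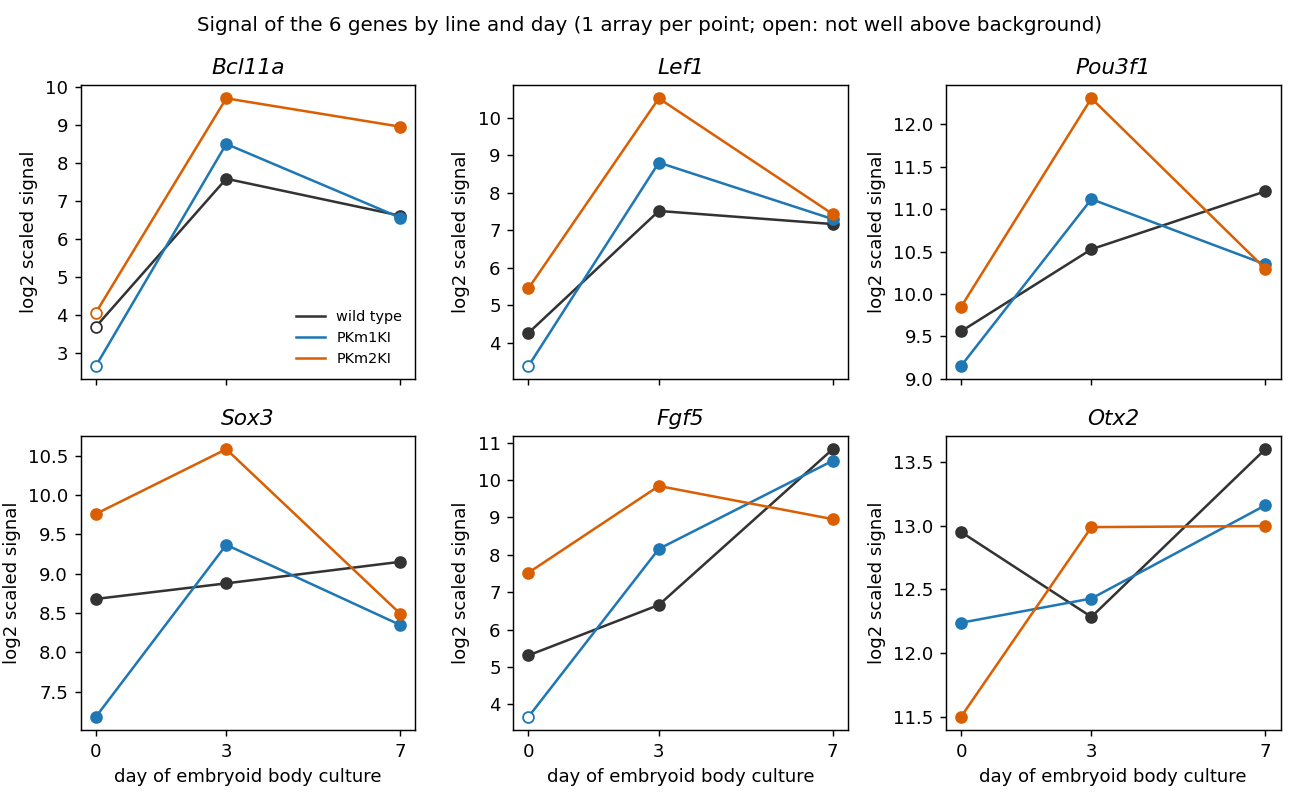
Log2 scaled signal of the 6 genes (1 panel each, vertical scales differ) against the day, with 1 point per array and 1 line per cell line. Lef1 and Bcl11a (brighter probe) have their highest point at day 3 in every line. Fgf5 and Otx2 are highest at day 7 in wild type and the PKm1KI line.

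Bcl11a, the repressor gene, was dimmest at day 0 and brightest at day 3. In wild type its levels were 3.68, 7.58 and 6.61 at days 0, 3 and 7. In the PKm1KI line they were 2.65, 8.50 and 6.56, and in the PKm2KI line 4.05, 9.70 and 8.96. No day 0 array was well above background for the gene, and all arrays of days 3 and 7 were, so that the days did not overlap with day 0. The 2 probes of Bcl11a, which carry different accessions, moved together over the arrays (r = 0.960, 9 arrays). They differed in wild type, which on the other probe was highest at day 7, at 6.86 after 5.86 at day 3. They also differed in the order of the lines at day 0, where no array measured the gene: the PKm2KI line read highest on the first probe and lowest on the other.

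Where the dimmer array did not measure the gene, the fold is set against the weakest signal detected on that array. Such folds are printed as at least, by convention, and are no strict bound. On the PKm1KI array of day 0 that signal was 4.60, and Tal1 read 4.90 without being well above background (log2). The normexp means given below for Bcl11a and Lef1 also correspond to smaller folds. Day 3 exceeded day 0 by at least 11.6-fold in wild type, at least 15.0-fold in the PKm1KI and at least 49.2-fold in the PKm2KI line. On the mean of the lines it was at least 20.4-fold. Day 7 exceeded day 0 by at least 8.77-fold on the mean and at least 3.90-fold in each line. From day 3 to day 7 the level was lower by 0.97 in wild type, 1.94 in the PKm1KI and 0.75 in the PKm2KI line (log2). It thus persisted in the first and the last of these by the rule above. The signals as read, of which those of day 0 are no measured level, differed by a mean of 5.13 (log2) between days 0 and 3. With the normexp correction, which models signal and background together, that mean was 2.36.

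Lef1, the Wnt effector gene, also had its lowest levels at day 0. Wild type gave 4.26, 7.51 and 7.16 at days 0, 3 and 7. The PKm1KI line gave 3.37, 8.80 and 7.29, of which the day 0 value was not well above background, and the PKm2KI line gave 5.44, 10.51 and 7.43. All day 3 and day 7 arrays lay above all day 0 arrays. The lines were spread over 3 log2 units at day 3 but lay between 7.16 and 7.43 at day 7 (log2). Day 3 exceeded day 0 by 9.53-fold in wild type, at least 18.4-fold in the PKm1KI and 33.6-fold in the PKm2KI line. With the PKm1KI day 0 value at its detection limit, the mean of the lines was at least 18.1-fold higher at day 3. From day 3 to day 7 Lef1 was lower by 0.35, 1.51 and 3.09 in these lines (log2), and it persisted in wild type alone. As read, the mean log2 difference at day 3 over day 0 was 4.58, and under normexp it was 2.66.

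The sequence just before an annotated start is shown for the 2 genes that were most alike over the arrays and for 1 that was not. The table of RefSeq promoters (GRCm38.p6) held 4 of the 6 genes, Pou3f1 and Sox3 not among them. The first start held there is shown for Bcl11a (chr11:24080445-24080694, plus strand) and Lef1 (chr3:131110047-131110296, plus strand), the pair whose levels were closest. It is also shown for Otx2 (chr14:48667645-48667894, minus strand), which was close to neither. The window of Bcl11a lies inside the annotated gene, which begins at chr11:24076564, and those of Lef1 and Otx2 adjoin theirs. Each run is 250 bases, 5′ to 3′, ending at the base before the start, and capitals mark CpG, the sites of DNA methylation in mammals.
Bcl11a: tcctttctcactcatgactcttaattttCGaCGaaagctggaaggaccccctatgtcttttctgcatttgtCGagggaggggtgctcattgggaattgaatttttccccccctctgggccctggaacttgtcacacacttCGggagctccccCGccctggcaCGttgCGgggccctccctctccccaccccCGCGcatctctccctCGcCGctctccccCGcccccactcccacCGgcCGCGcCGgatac
Lef1: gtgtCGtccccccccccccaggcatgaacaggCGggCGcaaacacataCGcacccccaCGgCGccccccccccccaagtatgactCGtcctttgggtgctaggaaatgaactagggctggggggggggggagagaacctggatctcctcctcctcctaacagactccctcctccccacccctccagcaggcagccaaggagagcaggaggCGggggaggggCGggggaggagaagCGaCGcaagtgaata
Otx2: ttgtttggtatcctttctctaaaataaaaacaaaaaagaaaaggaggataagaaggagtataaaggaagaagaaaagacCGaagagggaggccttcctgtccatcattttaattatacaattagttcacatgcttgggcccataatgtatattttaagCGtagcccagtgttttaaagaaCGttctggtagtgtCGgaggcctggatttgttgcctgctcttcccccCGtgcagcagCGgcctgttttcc
The window of Bcl11a had 16 CpG and 62 percent G or C, that of Lef1 11 and 66.4 percent, and that of Fgf5 (chr5:98253934-98254183, plus strand, not shown) 24 and 70.8 percent. Otx2 had 6 CpG and 42 percent. The median over 32851 windows of the same length was 6 CpG and 52.4 percent. The 4 short motifs searched on both strands were LEF/TCF (ATCAAAG, in 3.21 percent of all windows), octamer (ATGCAAAT, 1.60 percent), SOX (ACAATG, 10.7 percent) and OTX (TAATCC, 6.25 percent). None of these letters stood in the 4 windows named here. Among the other annotated starts, the fourth of Lef1 held the SOX letters at position -132 from the start and the third of Otx2 the OTX letters at position -211, both on the minus strand of the window.

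Pou3f1, the POU factor gene, was well above background on all 9 arrays. Wild type had 9.56, 10.53 and 11.21 at days 0, 3 and 7, the PKm1KI line 9.15, 11.12 and 10.35, and the PKm2KI line 9.85, 12.31 and 10.30. All day 3 arrays and all day 7 arrays lay above all day 0 arrays, but wild type went on upward to day 7 while both knock-in lines came down. Day 3 exceeded day 0 by 1.96-fold in wild type, 3.91-fold in the PKm1KI and 5.50-fold in the PKm2KI line (mean log2 difference 1.80 ± 0.76, SD, n = 3 lines). Day 7 was 0.68 above day 3 in wild type and 0.77 and 2.01 below it in the PKm1KI and PKm2KI lines.

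Sox3, the gene of the SOX factor, had days that overlapped. Its levels were 8.68, 8.88 and 9.15 in wild type, 7.18, 9.37 and 8.35 in the PKm1KI and 9.76, 10.58 and 8.49 in the PKm2KI line. The PKm2KI line at day 0 lay above wild type and the PKm1KI line at day 3. The PKm1KI line was 4.55-fold higher at day 3 than at day 0, the PKm2KI line 1.77-fold and wild type 1.15-fold (mean log2 difference 1.07 ± 1.02, SD, n = 3 lines). At day 7 the mean was 0.12 ± 1.25 (SD, n = 3 lines) above day 0, a difference smaller than its spread. It turned negative without the wild type line or its day 7 array and without the PKm1KI line or its array of day 0 or day 7, with values down to -0.42.

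Fgf5, the growth factor gene, was highest at day 7 in wild type and the PKm1KI line. Its levels were 5.31, 6.66 and 10.82 in wild type, 3.67, 8.16 and 10.51 in the PKm1KI line and 7.52, 9.84 and 8.95 in the PKm2KI line. The first PKm1KI value was not well above background. Day 3 overlapped with day 0, because the PKm2KI line at day 0 lay above wild type at day 3. Day 7 exceeded day 0 by 45.6-fold in wild type, at least 60.4-fold in the PKm1KI and 2.70-fold in the PKm2KI line. With the PKm1KI day 0 value at its detection limit, the mean of the lines was at least 5.31-fold above day 0 at day 3 and at least 19.5-fold at day 7. From day 3 to day 7 Fgf5 was 4.16 and 2.36 higher in wild type and the PKm1KI line and 0.89 lower in the PKm2KI line.

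Otx2, the homeobox factor gene, had high signal throughout and was never highest at day 3. Its levels were 12.95, 12.28 and 13.60 in wild type, 12.24, 12.43 and 13.16 in the PKm1KI and 11.50, 12.99 and 13.00 in the PKm2KI line. In wild type the level at day 3 was 0.67 below day 0, and in the PKm2KI line it was 1.49 above it. The mean of 0.34 ± 1.09 (SD, n = 3 lines) was smaller than its spread, and it took a negative sign without the PKm2KI line or its array of day 0 or day 3. Day 7 lay above day 0 in all lines, by 1.57-fold to 2.83-fold (mean log2 difference 1.03 ± 0.43, SD, n = 3 lines).

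**Figure D2:**
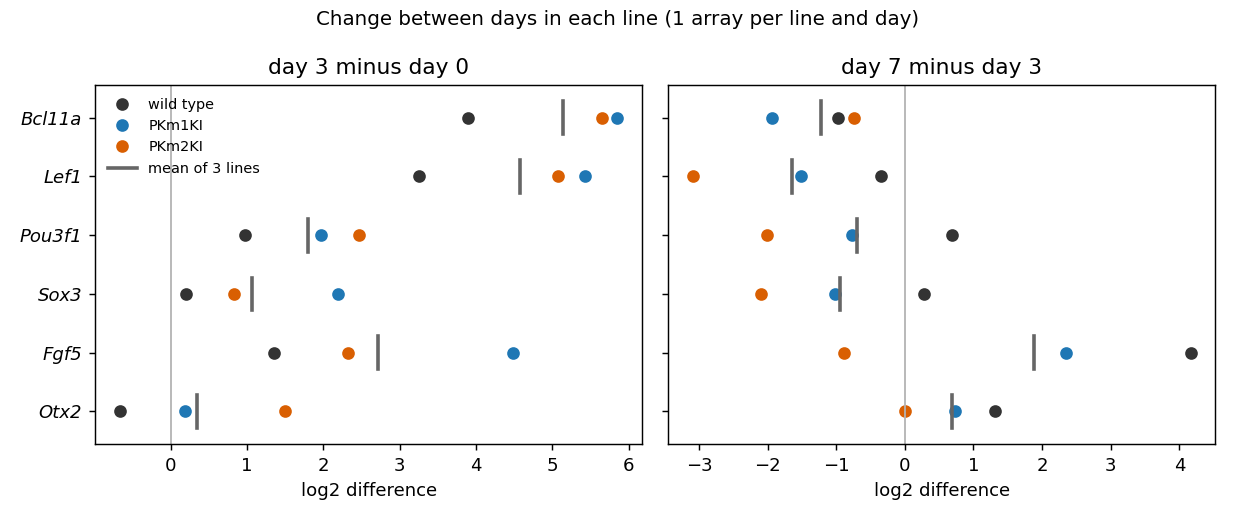
Log2 differences of the 6 genes between days, 1 point per line, with the mean over lines (values not well above background at day 0, Bcl11a in every line and Lef1 and Fgf5 in the PKm1KI line, are as read). Bcl11a and Lef1 lie at 3.25 or more at day 3 over day 0 in every line, and the points for day 7 over day 3 fall on both sides of 0 for Fgf5, Pou3f1 and Sox3.

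Over all genes tested, the day 3 arrays all lay above the day 0 arrays for 21.9 percent, and here for 3 of 6 (Bcl11a, Lef1 and Pou3f1). The day 7 arrays all lay above the day 0 arrays for 6.86 percent, and here for 5 of 6, all but Sox3. Both counts share the day 0 arrays and follow from the choice of the genes. Days 0 and 3 shared a slide only in PKm2KI, and there day 3 exceeded day 0 by at least 49.2-fold for Bcl11a, and by 5.07 for Lef1, 2.46 for Pou3f1, 2.32 for Fgf5, 1.49 for Otx2 and 0.82 for Sox3 (log2). Days 0 and 7 shared a slide in wild type and in the PKm1KI line. There day 7 exceeded day 0 in all 12 pairs of gene and line, from a log2 difference of 0.47 (Sox3 in wild type) to at least 60.4-fold (Fgf5 in the PKm1KI line). Of these, Bcl11a in both lines and Lef1 and Fgf5 in the PKm1KI line have only a fold set against the weakest detected signal.

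Markers of other cell types differed between these days too. Of 12 fibroblast and feeder markers, 11 were well above background on each day 0 array and 7 to 10 at day 3. Their summed signal was 58388 to 77295 at day 0 and 31228 to 47235 at day 3. That sum is largely Fn1, which read 14.89 to 15.90 (log2) over all 9 arrays. The mean log2 signal of the list was 8.30 to 9.34 at day 0 and 5.81 to 6.46 at day 3. Of 11 tested, 4 fell from day 0 to day 3, beside 2.2 percent of all genes. Among the 4 were Dcn, a matrix proteoglycan gene (73.5-fold, adjusted p = 0.0390, limma), and the collagen gene Col1a2 (21.5-fold, adjusted p = 0.0381, limma). Of 13 visceral endoderm markers, 12 or 13 were well above background at day 7 and 6 to 10 at day 0. The part of these cell types in the levels of the 6 genes was not tested. Among the day 7 arrays the naive pluripotency genes had their highest summed signal in the PKm2KI line (252511, against 185431 in wild type and 84609 in the PKm1KI line). At that day Fgf5, Otx2 and Pou3f1 were lowest in the PKm2KI line, Sox3 lay between the other lines, and Lef1 and Bcl11a were highest.

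**Figure D3:**
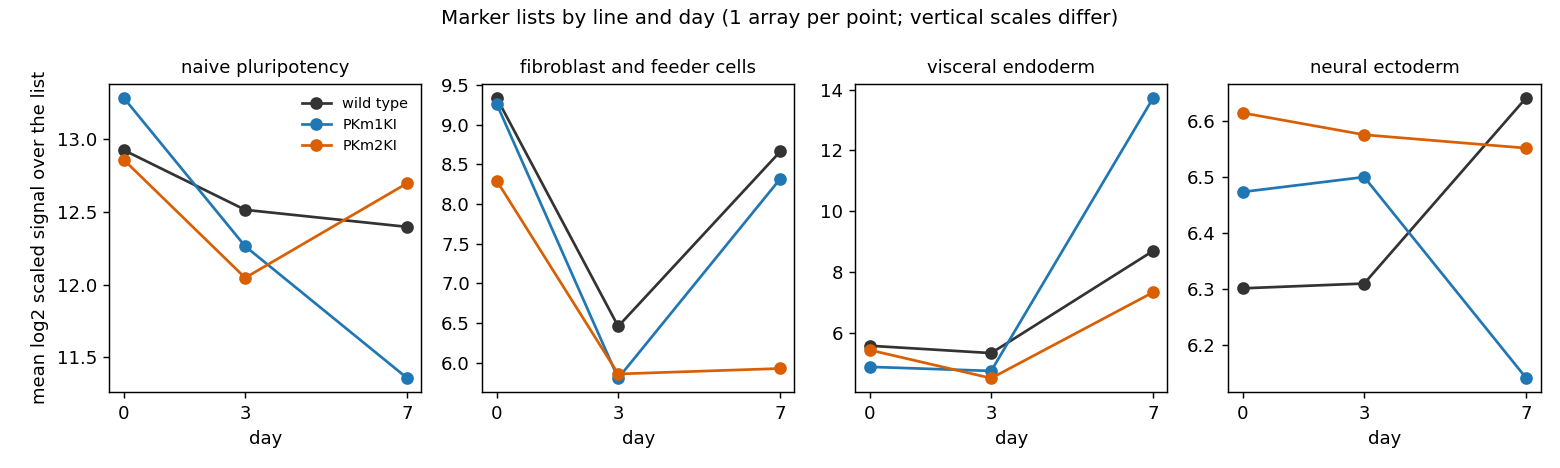
Mean log2 signal of the marker lists by day, 1 point per array and 1 line per cell line, with vertical scales that differ. Fibroblast and feeder markers are lower at day 3 in all 3 lines, and visceral endoderm markers at day 7 stand highest in the PKm1KI line.

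Among the 6 genes, Lef1 was most like Bcl11a (r = 0.947) and Pou3f1 (r = 0.940) over the 9 arrays, and Pou3f1 and Bcl11a gave r = 0.836. Otx2 and Sox3 gave r = -0.01. These values describe arrays that share lines, days and slides, with signals below background taken as read. Over 4036 genes with a range of at least 2 log2 units, those most like Bcl11a were Cnrip1 (r = 0.964), the sphingosine phosphate receptor gene S1pr2 (r = 0.962) and Enpp3 (r = 0.961). S1pr2 (r = 0.970) and Wt1 (r = 0.943) were among the 3 genes most like Lef1. Pim2, which is also in the list of other formative genes below, was most like Pou3f1 (r = 0.934), followed by Wt1 (r = 0.916) and Adamts10 (r = 0.911). Fgf5 was closest to Stk39 (r = 0.935), the ephrin gene Efnb2 (r = 0.928) and Lrrn1 (r = 0.918). The nearest genes of Otx2 were Cyp2c29 (r = 0.908), Crb2 (r = 0.901) and Zfp697 (r = 0.897), and those of Sox3 were Gzma (r = 0.868), Gfra2 (r = 0.860) and Lrrc73 (r = 0.853).

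The first question the design allows to be tested is whether the lines differed in these genes. None of the 6 passed in any of the 3 comparisons of lines (limma). At an unadjusted p under 0.05 there were 0 of 6 for PKm1KI against wild type, beside 1850 of all genes, and 2 of 6 for PKm2KI against each of the others, beside 2014 of all genes against wild type. Over all genes, 0.0133 percent passed between the PKm1KI line and wild type, 0.0133 percent between the PKm2KI line and wild type, and 0 percent between the knock-in lines, where 1193 genes had an unadjusted p under 0.05. The first 2 comparisons share the wild type arrays. The spread between days was wide, so that the 95% intervals do not exclude large differences.

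Bcl11a was highest in the PKm2KI line at days 3 and 7 on both probes. On the brighter probe it exceeded wild type there by 2.12 and 2.35 (log2) at these days, and the mean of all 3 days was 1.61 ± 0.44 (SE, 95% interval 0.55 to 2.67, adjusted p = 0.205 by limma). It exceeded the PKm1KI line by 1.67 ± 0.44 (SE, 95% interval 0.61 to 2.73, adjusted p = 0.627 by limma). Since the gene was not well above background in any line at day 0, that day has no measured difference and its readings enter both means. Leaving out an array, line or day gave 1.24 to 2.23 against wild type and 1.30 to 2.04 against the PKm1KI line. With the slide as a block, which in effect leaves out the PKm2KI array of day 7, the difference from the PKm1KI line was 0.82, and that from wild type also had a positive sign with an adjusted p of 0.532 (limma).

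Lef1 exceeded wild type in the PKm2KI line by 1.19, 3.00 and 0.27 at days 0, 3 and 7 (mean 1.49 ± 0.56, SE, 95% interval 0.16 to 2.82, adjusted p = 0.321 by limma). Leaving out an array, line or day gave 0.73 to 2.10, with 0.83 without the wild type array of day 3 and the lowest value without all of day 3. Sox3 was higher in the PKm2KI than in the PKm1KI line on 3 of 3 days, by 2.58, 1.22 and 0.14 (mean 1.31 ± 0.54, SE, adjusted p = 0.627 by limma). That mean was 0.77 without the PKm1KI array of day 0 and 0.68 to 1.95 over all such omissions. For both genes the lines were closest at day 7. Fgf5 was 2.21 and 3.18 higher in the PKm2KI line than in wild type at days 0 and 3 and 1.87 lower at day 7, and the mean of 1.17 ± 1.09 (SE, adjusted p = 0.671 by limma) joins opposite signs. With the slide as a block, and so without day 7 of the PKm2KI line, the Fgf5 mean was 2.24 (adjusted p = 0.371 by limma). Pou3f1 differed by 0.39 (adjusted p = 0.746) and Otx2 by -0.45 (adjusted p = 0.646) in the same comparison by limma. Between the PKm1KI line and wild type the 6 means lay between -0.60 (Sox3) and 0.18 (Lef1), with adjusted p from 0.731 to 0.977 by limma.

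**Figure D4:**
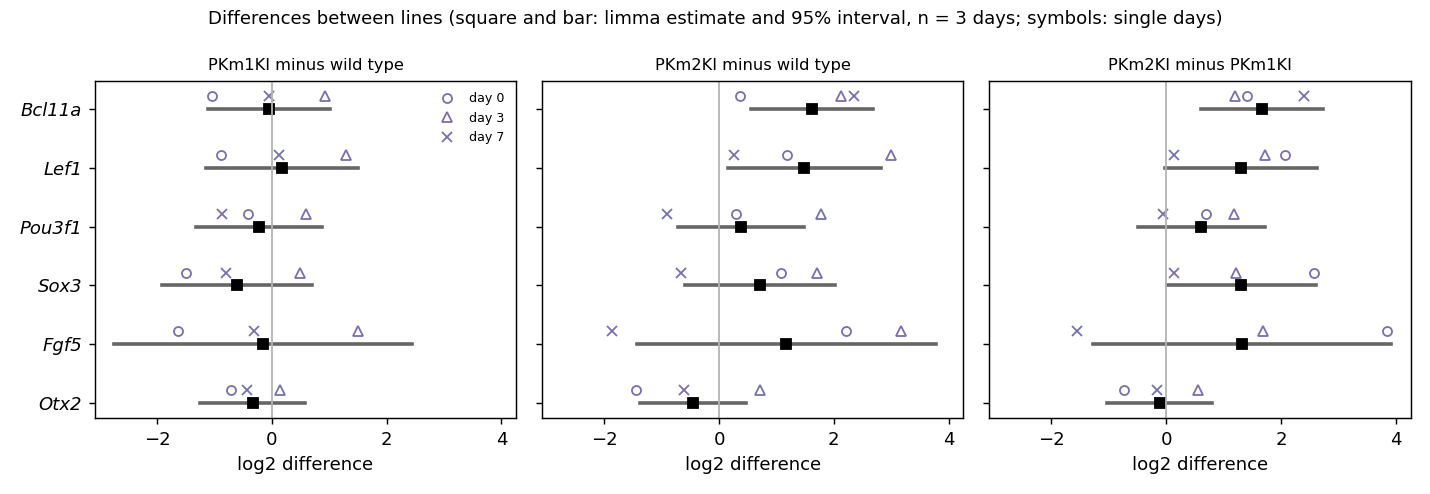
Log2 differences between lines for the 6 genes in 3 panels, with the limma estimate and its 95% interval over 3 days and 1 symbol per day (Bcl11a at day 0, and Lef1 and Fgf5 at day 0 in the PKm1KI line, as read and not measured). The intervals of Bcl11a and Lef1 lie above 0 for the PKm2KI line against wild type, and 0 of 6 genes pass after adjustment over all genes in any panel.

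By day, the lines kept one order at day 3: PKm2KI above PKm1KI above wild type for 6 of 6 genes, an order that 18 percent of all genes tested showed. The PKm1KI line was above wild type at day 3 by 0.14 for Otx2, the least, and by most for Fgf5 (8.16 against 6.66). At day 0 it was below wild type for the 3 genes measured on both arrays, by 0.41 for Pou3f1, 0.71 for Otx2 and most for Sox3 (7.18 against 8.68). Fgf5 and Lef1 were well above background there in wild type and not in the PKm1KI line, and Bcl11a in neither. These orders were noted in the values and carry no test. The slides run with them, since the PKm1KI array of day 0 and the wild type array of day 3 lay on slide 2 and their partners on slide 1. Line and slide cannot be told apart in these 2 comparisons. Within slide 1, the PKm2KI line exceeded the PKm1KI line at day 3 for 6 of 6 genes, by 0.56 (Otx2) to 1.71 (Lef1). At day 0 it exceeded wild type for Lef1, Fgf5, Pou3f1 and Sox3, with Otx2 lower by 1.45 and Bcl11a measured in neither.

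A wider set of formative epiblast genes was read beside the 6. Of 15 other formative genes, 13 were higher at day 3 than at day 0 and 2 rose: Fgf15, an FGF of the early embryo (2.67 ± 0.21 log2, SE, 6.34-fold, adjusted p = 0.00996 by limma), and the de novo DNA methyltransferase gene Dnmt3b (2.15 ± 0.31 log2, SE, 4.45-fold, adjusted p = 0.0286 by limma). The median of the list was 0.64, against 0.09 over all genes, of which 4.05 percent passed (1.85 percent higher and 2.2 percent lower) and 3932 had an unadjusted p under 0.05. From day 3 to day 7, 13 of the 15 were lower and 0 passed (median -0.59 against -0.13, limma), while 0 percent of all genes passed and 4550 had an unadjusted p under 0.05. The largest differences there were Etv4, an ETS factor gene (-1.91, adjusted p = 0.0582 by limma), and Dnmt3b (-1.30, adjusted p = 0.0851 by limma). Etv4 passed in 5 of 23 alternatives (adjusted p = 0.0204 to 0.420, limma), among them the slide as a block (0.0395) and without the PKm2KI array of day 7. In these 2 settings 986 and 2388 of all genes passed. Fgf15 had levels of 6.82, 9.69 and 8.50 in wild type, 6.61, 8.78 and 7.88 in the PKm1KI and 5.61, 8.58 and 7.25 in the PKm2KI line. It was highest at day 3 and above day 0 at day 7 in all 3 lines, as were Lef1 and, on its brighter probe, Bcl11a.

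**Figure D5:**
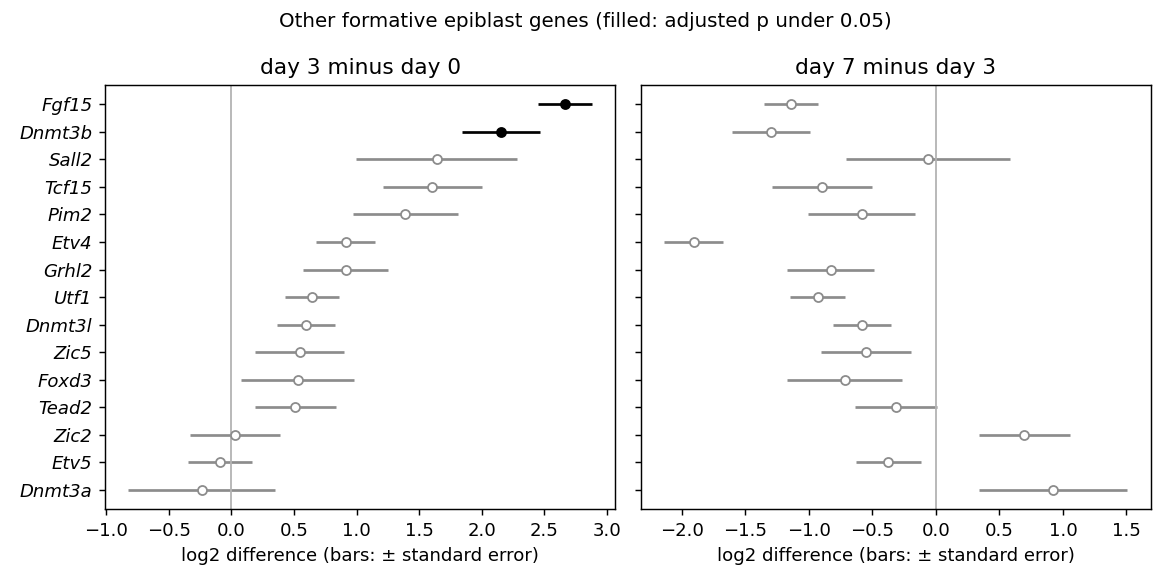
Log2 differences of the 15 other formative epiblast genes between days, with 1 point per gene, the limma estimate, and bars of ± 1 SE. Filled points have an adjusted p under 0.05. Fgf15 and Dnmt3b lie highest at day 3 over day 0, with means of 2.67 and 2.15.

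Genes that work with LEF1 and BCL11A, or that Wnt signalling acts on, were read in the same way. Of 10 LEF/TCF family members and beta-catenin partners, 5 were higher and 5 lower at day 3 than at day 0, and 0 passed (limma). Tcf7, the closest relative of Lef1, differed by 0.50, and the largest values were those of the corepressor gene Tle3 (-0.88, adjusted p = 0.106 by limma) and Tcf7l2 (-0.77, adjusted p = 0.150 by limma). Of 14 Wnt target and feedback genes tested, 11 were lower at day 3 than at day 0 and 0 passed (median -0.44, limma), with Cdx1 at -1.99 (adjusted p = 0.0734 by limma) and Sp5 at -1.75 (adjusted p = 0.287 by limma). Sp5 passed in 2 of 23 alternatives, with the slide as a block (adjusted p = 0.0304) and without the PKm2KI array of day 7 (adjusted p = 0.0227, limma, highest 0.654). In these 2 settings 579 and 1263 of all genes passed. Cdx1 and Tle3 each passed in 1 of 23, with adjusted p from 0.0391 to 0.252 and from 0.0469 to 0.347 (limma). From day 3 to day 7, 10 of the 14 were higher (median 0.63). The largest value was that of the Wnt antagonist gene Dkk1 (4.73 as read, adjusted p = 0.0868 by limma, and 0.00943 to 0.441 over 22 alternatives, of which 3 passed). Dkk1 was not well above background on any day 3 array, so 4.73 is no measured difference. The lines were not alike. The mean log2 signal of the whole Wnt list went from 6.96 to 8.44 in wild type and from 6.73 to 8.14 in the PKm1KI line. In the PKm2KI line it went from 6.65 to 6.42. Of 17 BAF complex subunit genes tested, 13 were higher at day 3 than at day 0 and 0 passed (median 0.34, limma).

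For Fgf5 the list of 8 FGF ligands and receptors held 1 called gene at day 3, Fgf15, which is shared with the formative list. Of 10 FGF and ERK target genes, 7 were lower and Egr1, an immediate early gene, fell (21.0-fold, adjusted p = 0.0436 by limma). Over all genes, 1.85 percent passed as higher and 2.2 percent as lower at day 3. Of 15 paralogs of the 6 genes, 9 were tested and 0 passed at day 3 against day 0 (limma). Of these 9, 4 were higher and 5 lower at day 3. Bcl11b, the relative of Bcl11a, differed by 0.15 and Sox2, a relative of Sox3, by -0.31. Sox21, another relative of Sox3, was lower at day 3 in each line. It read 9.90 at day 0 and 6.75 at day 3 in wild type, 8.25 and 6.43 in the PKm1KI line and 7.79 and 7.55 in the PKm2KI line. Sox1 was lower at day 3 in wild type (7.61 to 6.37) and the PKm1KI line (7.17 to 6.54) and higher in the PKm2KI line (7.79 to 8.74). Pou3f2, Pou3f3, Otx1, Crx and Sox14 were not well above background on any array.

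Naive, neural, primitive streak, trophoblast and blood genes completed the lists. Of 15 naive pluripotency genes, 14 were lower at day 3 than at day 0 and Klf4 (4.37-fold, adjusted p = 0.0229 by limma) and Tbx3 (2.91-fold, adjusted p = 0.0496 by limma) fell. Of 16 neural ectoderm genes tested, 9 were lower and 7 higher at day 3 than at day 0 (median -0.19, against 0.09 over all genes). All 8 trophoblast genes tested were lower at day 3 (median -1.39) and 0 passed (limma). At day 7 the summed signal of that list was 148636 in the PKm1KI line, 80688 in wild type and 4573 in the PKm2KI line. Of 10 primitive streak and mesoderm genes tested, 8 were higher at day 7 than at day 3 (median 1.25). Of 8 blood and lymphoid genes tested, 4 were higher and 4 lower at day 3 than at day 0. Over the 15 lists, 10 of 159 genes tested passed at day 3 against day 0, beside 4.05 percent of all genes. At day 7 against day 0 only the collagen gene Col6a3 passed, beside 0.0933 percent of all genes (0.00666 percent higher and 0.0866 percent lower), and 0 list genes passed between lines. The number passing at day 3 against day 0 was 14 with the slide as a block and moved with single arrays. It was 1 without the wild type array of day 3, the PKm1KI array of day 0 or that of day 3, 2 without the wild type array of day 0 and 4 without that of day 7. It was 4 without the PKm2KI array of day 0 or day 3, 16 without the PKm1KI array of day 7 and 19 without the PKm2KI array of day 7. Leaving out the wild type line or the PKm1KI line left 0. Of all genes, 579 passed with the slide as a block, 1263 without the PKm2KI array of day 7 and 0 without either of those lines.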

How the data were processed

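The authors made the deposited intensity values with Agilent Feature Extraction 10.10, and their processed signal is already background-subtracted, per the file headers. The rounded intensity values of the deposited table match it (largest difference 0.497 percent). Of 55681 probes, 27229 had 1 symbol through the RefSeq accession and 28452, not used here, none. Processed signals were scaled to equal 75th percentiles, set to at least 5 and put on a log2 scale. A probe had to be well above background on 3 or more of the 9 arrays, and the brightest probe stood for a gene. Of the genes, 3 with a flagged spot were left out, leaving 15009.

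Genotype and day entered 1 additive limma fit over all arrays (limma 3.58.1, R 4.3.3), and p-values were adjusted over all genes by the Benjamini and Hochberg method with a threshold of 0.05 (two-sided, 4 residual degrees of freedom before moderation). On simulated arrays of 15009 genes, 2 to 14 percent of genes shifted by 1 (log2) were recovered across the comparisons. Of those shifted by 2 it was 73 to 80 percent, and of those shifted by 3 it was 82 to 98 percent. These rates are not the power for the genes described here. The SE of those genes between lines was 0.38 (Otx2) to 1.09 (Fgf5), against a median of 0.26 over all genes (log2). Whether shifts of these sizes would be recovered in them was not tested. The number of arrays limits the precision. Tables were handled in Python 3.11.15 (pandas 2.3.3).

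The genes and lists were chosen with earlier results of these data known. Named are all probes of the 6 genes, up to 4 called genes of each list described (up to 2 where none passed), measured paralogs, and the 3 genes nearest to each by correlation, with unnamed transcripts left out. Some genes that this rule selects are left out of the text. Tcf7, Pkm and the list members Pou5f1 and Sox2 were added as checks after their values were seen. Alternatives were the background correction, scaling, filter, floor, probe averaging, no day or line term, the slide as a block, and leaving out arrays, lines or days.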

Additional observations from a re-analysis of the deposited data

Results flagged for a closer look

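In 4 genes a line moved up and another down between the same days, each by at least 0.5 (log2). Each value rests on 1 array per line and day, and the difference was not tested. From day 3 to day 7 Fgf5 differed by 5.05 between wild type (4.16) and the PKm2KI line (-0.89), and by 3.24 between the PKm1KI line (2.36) and the PKm2KI line. Over the same days Pou3f1 differed by 1.45 between wild type (0.68) and the PKm1KI line (-0.77), and by 2.69 between wild type and the PKm2KI line (-2.01). From day 0 to day 3 Otx2 differed by -2.16 between wild type (-0.67) and the PKm2KI line (1.49). From day 0 to day 7 Sox3 differed by 2.43 between the PKm1KI line (1.17) and the PKm2KI line (-1.27). The PKm2KI array of day 7, alone on slide 3, enters 4 of these 6 values, and there line, day and slide cannot be told apart.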

How the results depend on the processing

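No member passed between lines under any of 23 alternatives (lowest adjusted p = 0.184, limma). Of 18 mean differences between lines, 10 kept their sign throughout. Fgf5 in the PKm1KI line against wild type turned to 0.20 with normexp, 0.066 with a floor of 20 and 0.26 with the slide as a block, and Bcl11a to 0.31, 0.29 and 0.19. Leaving out arrays, lines or days gave, for PKm1KI minus wild type, -1.07 to 0.85 for Fgf5, -0.54 to 0.50 for Bcl11a, -0.75 to 0.0080 for Otx2, -0.78 to 0.26 for Pou3f1 and -0.48 to 0.71 for Lef1. It gave -1.03 to 0.051 for Otx2 and -0.31 to 1.03 for Pou3f1 for PKm2KI minus wild type, and -0.57 to 0.29 for Otx2 between the knock-in lines. The list genes passing at day 3 against day 0 (10) were 16 with normexp, 4 without a filter and 0 to 19 leaving out arrays, lines or days. At day 7 against day 0 (1) they were 0 with normexp, with probes above background on all 9 arrays, with a floor of 20 and without the line pairing, and 0 to 8 leaving out. At day 7 against day 3 (0) they were 1 with normexp, 1 with probes above background on all 9 arrays, 30 with the slide as a block and 0 to 43 leaving out. The calls over all genes moved too, at day 7 against day 3 to 986 with the slide as a block. Over all alternatives, 0 to 15.9 percent of all genes passed there, 0 to 8.41 percent at day 3 against day 0 and 0 to 1.51 percent at day 7 against day 0. Fgf15 remained called in 17 of 23 alternatives, Klf4 in 14, Dnmt3b and Egr1 in 11 and Tbx3 in 9. The day differences of the 6 genes moved by more than 1 SD in 4 of 405 values, all with normexp for Lef1 and Bcl11a. Scaling to probes detected on all arrays moved the median of all genes at day 3 against day 0 from 0.09 to -0.08 and at day 7 against day 3 from -0.13 to 0.07. Lef1, Fgf5 and Bcl11a have no value when probes must be above background on all 9 arrays. The labels carry no replicate numbers, and the fit itself pairs days within lines and lines within days. Without this pairing 8 list genes passed at day 3 against day 0.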
